A study of Mus musculus with 15 samples.

Results

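The 10 genes that encode the subunits of the transcription factor NF-κB and the inhibitors that bind it were followed in CD4+ T cells with and without the catalytic AMPKα1 subunit of AMP-activated protein kinase, in spleen and in mesenteric lymph nodes (mLN). They were picked by symbol, as 5 subunits (Nfkb1, Nfkb2, Rel, Rela, Relb) and 5 inhibitors (Nfkbia, Nfkbib, Nfkbie, Nfkbid, Nfkbiz), out of 55421 genes in the count files, with values of these same samples already known. Donor T cells came from C57BL/6 mice of 6 to 8 weeks of age whose Prkaa1 gene, which encodes AMPKα1, was floxed (Prkaa1fl/fl), and that either lacked Cre (WT) or carried CD4-Cre (KO), a transgene that is active in T cells. Both genotypes thus shared the floxed alleles, and since WT donors lacked Cre, an effect of Cre itself cannot be told apart from that of the deletion. Naive CD4+CD25-CD44-CD62L+ cells of either genotype were injected into Rag2-/- recipients, which have no T or B cells of their own, to induce transfer colitis, and 6 weeks later the transferred cells were sorted from both organs. The paper reports weight loss and heavy T cell infiltration in recipients of WT cells, but stable weight and mild inflammation in those of KO cells. An effect of genotype within the cells therefore cannot be told apart from that of a host with milder disease. RNA-seq covered 15 samples, with 4 WT and 4 KO samples of spleen, 3 WT and 4 KO samples of mLN. The study excluded 1 WT mLN sample for quality, so WT mLN holds replicates 1, 2 and 4.

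Members of the NF-κB family bind DNA as dimers. In resting T cells most dimers are held in the cytoplasm by IκB proteins, and signals from the T cell receptor and from tumor necrosis factor or interleukin-1 family receptors activate the IKK complex, which marks the IκB proteins for degradation. Nfkb1 and Nfkb2 encode precursors, p105 and p100, that themselves act as inhibitors and are processed to p50 and p52. Rela, Rel and Relb encode p65, c-Rel and RelB, the subunits that carry a transactivation domain. Nfkbia, Nfkbib and Nfkbie encode the classical cytoplasmic inhibitors IκBα, IκBβ and IκBε, whereas Nfkbid and Nfkbiz encode the atypical nuclear proteins IκBNS and IκBζ. Several of these genes are themselves known targets of NF-κB, which forms a feedback loop.

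Reads counted on genes ranged from 9363940 to 11283439 per sample, and each member had at least 471 reads in every sample, so that all 10 passed the filter on low counts in each comparison. Prkaa1 was between 47.1 and 53.8 counts per 1000000 reads on genes (CPM) in WT spleen and between 18.6 and 21.4 in KO spleen, and between 50.6 and 60.9 in WT mLN and between 21.3 and 32.0 in KO mLN, so that the labels and the targeted gene went together (reads from parts of the gene outside the deletion are counted too). The summed CPM of 7 T cell markers lay between 5780 and 7572 in every sample. Values below are CPM scaled by the TMM method, and differences are log2 fold changes from edgeR. Their standard error (SE) was derived as the absolute log2 fold change divided by the square root of the F statistic of the edgeR test. A gene was called when its adjusted p over all genes tested was under 0.05. In RNA from a whole sorted population, fewer cells that express a gene and less of its RNA per cell cannot be told apart.

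Because several members are known targets of NF-κB, the windows around the RefSeq start sites of the members (250 bases before to 50 after, build GRCm38.p6) were searched on both strands for the κB consensus of 10 bases. Of the 10 members, 7 had at least 1 window in the RefSeq table used (Nfkb2, Rel, Rela, Nfkbia, Nfkbib, Nfkbie and Nfkbid). The consensus stood in at least 1 window of 5 of these 7 genes, namely Nfkb2, Rel, Nfkbia, Nfkbie and Nfkbid, against 8.46% of all 32851 windows and 9.55% of 27025 genes. Such a match describes letters and is not a measured binding site. Stretches of 30 bases around 6 matches of these 5 genes are printed below 5′ to 3′ along the gene, with the match in capitals. Of these genes, Nfkb2, Rel and Nfkbid were called in at least 1 comparison below, and Nfkbia and Nfkbie in none. Rela was called too and its window held none. Relb and Nfkbiz were also called but had no window, and Nfkbib had a window without a match and was not called. The genes were chosen with these values known, and whether a match goes with a call was not tested. Where 2 matches overlap the capitals run over 11 bases.
Nfkb2, chr19:46304688-46304717, plus strand: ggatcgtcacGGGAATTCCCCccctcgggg
Nfkbia, chr12:55492657-55492686, minus strand: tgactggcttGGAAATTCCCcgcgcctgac
Rel, chr11:23771042-23771071, minus strand: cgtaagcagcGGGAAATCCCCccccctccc
Nfkbie, chr17:45555584-45555613, plus strand: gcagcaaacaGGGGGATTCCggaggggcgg
Nfkbid, upstream match, chr7:30422170-30422199, plus strand: gccccgccctGGGACTTCCCagagcaccac
Nfkbid, second match, chr7:30422215-30422244, plus strand: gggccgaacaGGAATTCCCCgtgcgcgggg

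The matches began 39 bases before the start site in Nfkb2, 29 in Nfkbia, 92 in Rel, 106 in Nfkbie, and 226 and 181 in Nfkbid. In Nfkb2 this stretch lies in annotated exon sequence, since a longer transcript starts further upstream, and another match began 11 bases before the same start site. Nfkbid has 3 RefSeq start sites, and both of its matches belong to the middle window (start site at chr7:30422406), the other windows holding none. The 250 bases before that start site, which lie in no annotated exon, are shown in full because Nfkbid was the only member called between the genotypes.
Nfkbid, chr7:30422156-30422405, plus strand: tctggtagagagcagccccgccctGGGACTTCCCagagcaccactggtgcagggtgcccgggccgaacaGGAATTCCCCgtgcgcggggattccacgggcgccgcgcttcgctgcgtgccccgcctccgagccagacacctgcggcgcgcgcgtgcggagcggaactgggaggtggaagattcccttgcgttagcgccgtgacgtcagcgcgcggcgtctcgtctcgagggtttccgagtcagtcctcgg

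The 249 bases before the first exon of Rel are shown for the same reason, as Rel was the member called between the organs in both genotypes.
Rel, chr11:23770971-23771219, minus strand: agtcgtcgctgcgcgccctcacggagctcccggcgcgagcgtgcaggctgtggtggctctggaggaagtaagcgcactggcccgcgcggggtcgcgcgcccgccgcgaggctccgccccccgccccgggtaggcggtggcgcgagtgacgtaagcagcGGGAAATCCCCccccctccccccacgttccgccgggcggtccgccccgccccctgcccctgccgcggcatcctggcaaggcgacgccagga

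To compare the members with each other, CPM were divided by the length of each gene's exons in kb. Nfkbia, the gene of the main cytoplasmic inhibitor, had by far the highest level per kb in every group, with 243 ± 42.2 (SD, n = 4) in WT spleen, 238 ± 42.3 (n = 4) in KO spleen, 252 ± 28.8 (n = 3) in WT mLN and 201 ± 30.5 (n = 4) in KO mLN. Rela came next with 59.5 ± 5.48, 57.8 ± 1.60, 49.5 ± 3.63 and 45.3 ± 5.35 CPM per kb in the same order of groups. The ranges of Nfkbia and Rela did not overlap in any group. In WT spleen Nfkb2 (44.7), Nfkbib (40.8), Nfkbie (30.8), Relb (25.7) and Nfkbid (24.99) followed, and each of these neighbours overlapped with the next in its range over samples. Nfkbiz (17.6), Rel (14.2) and Nfkb1 (9.82) were lowest in WT spleen, again with overlapping ranges among neighbours, whereas Nfkbid and Nfkbiz did not overlap. In KO spleen Nfkbid, at 43.0 ± 4.50 CPM per kb, stood above Nfkbie (33.3 ± 2.67) without overlap. In mLN Rel was lowest in both genotypes, at 7.16 ± 0.74 in WT and 8.01 ± 0.88 in KO, and did not overlap with Nfkb1, at 11.7 and 11.4. The place of Nfkb1 depends on the length used. Its annotated exons add up to 12061 bases but its longest transcript to 4149, and per kb of the longest transcript Nfkb1 reached 28.6 in WT spleen, above Nfkbiz (21.5) and Rel (14.2).

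**Figure D1:**
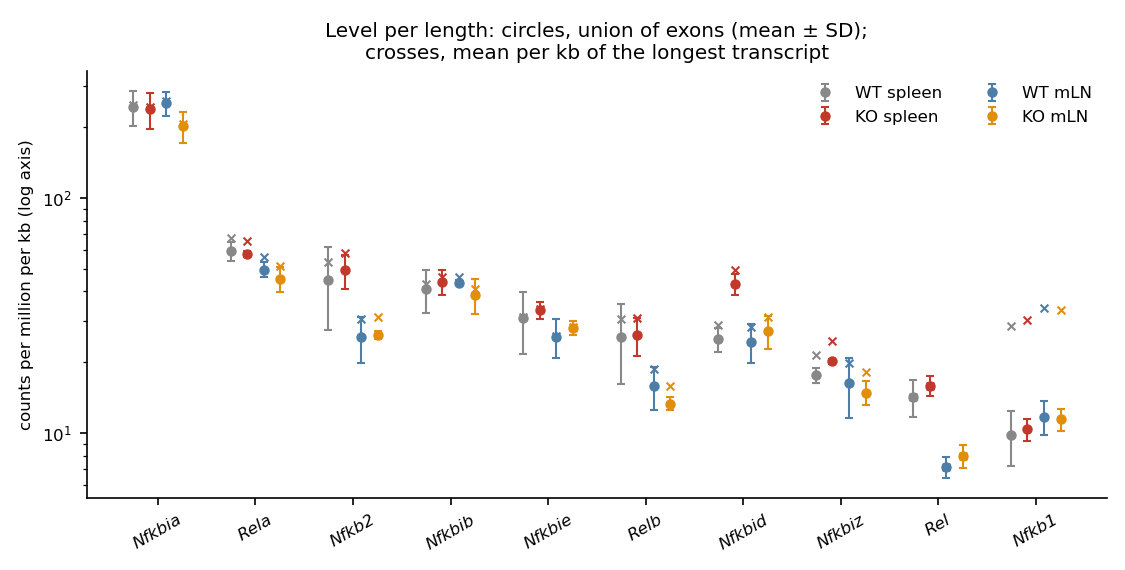
Level of the 10 members in CPM per kb (log axis) in the 4 groups, with circles and bars for the mean ± SD per kb of all exons and crosses for the mean per kb of the longest transcript. Nfkbia sits above all others in each group, Rel is lower in both mLN groups than in spleen, and the crosses of Nfkb1 lie far above its circles.

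Between KO and WT cells of the spleen, Nfkbid stood out from the other members. Nfkbid was at 51.1, 67.3, 58.2 and 57.9 CPM in the WT samples and at 105.1, 114, 91.1 and 93.8 CPM in the KO samples. Every KO sample was above every WT sample. The difference was 0.77 on the log2 scale (SE 0.10, 4 against 4 samples), a ratio of 1.71. Nfkbid was the only member called higher, with 0.547% of 14254 genes called in that direction, and none of the members was called lower. Because this comparison was known when the genes were chosen, the call is a description and not a test of the family. Without KO spleen replicate 2, the sample with the highest Nfkbid, the difference was 0.71 and was no longer called, while the 7 fits that left out another sample kept the call, with differences of up to 0.85.

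Nfkbiz, the gene of the other atypical nuclear protein, differed less. Its CPM were 86.9, 89.4, 96.8 and 80.9 in WT spleen and 99.9, 102, 104.5 and 97.9 in KO spleen. The groups did not overlap, but the highest WT and the lowest KO sample lay close together, and the difference of 0.18 (SE 0.07) was not called. Nfkbid and Nfkbiz were the 2 members with no overlap and KO above WT, a pattern found in 6.5% of all genes tested. The 3 cytoplasmic inhibitors were close between genotypes in spleen, with log2 differences of -0.04 (SE 0.14) for Nfkbia, 0.10 (SE 0.14) for Nfkbib and 0.10 (SE 0.17) for Nfkbie.

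None of the 5 subunits was called between the genotypes in spleen. Their log2 differences were 0.07 (SE 0.16) for Nfkb1, 0.13 (SE 0.23) for Nfkb2, 0.15 (SE 0.12) for Rel, -0.05 (SE 0.07) for Rela and 0.01 (SE 0.23) for Relb. The precision was not the same for all of them. WT spleen samples covered 128 to 308 CPM for Nfkb2 and 65.6 to 152 CPM for Relb, with replicate 3 highest and replicate 4 lowest for both genes, whereas Rela covered 164 to 203 CPM. The median difference of the 10 members was 0.10, beside -0.00 over all genes.

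In mLN none of the 10 members was called between KO and WT, while 0.641% of 14359 genes were called in either direction. The largest difference was that of Nfkbia, which was at 377, 459.8 and 383 CPM in WT and at 297, 324, 283 and 393 CPM in KO. KO replicate 4 lay within the WT range, and the difference of -0.32 (SE 0.12) did not pass. Nfkbid, which differed in spleen, was at 47.7, 69.2 and 55.1 CPM in WT mLN and at 60.1, 77.9, 54.8 and 61.3 CPM in KO mLN, with a difference of 0.16 (SE 0.16). No member had all KO samples below all WT samples in mLN, a pattern of 7.69% of all genes. The differences of the subunits ran from -0.24 (SE 0.14) for Relb to 0.17 (SE 0.12) for Rel.

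**Figure D2:**
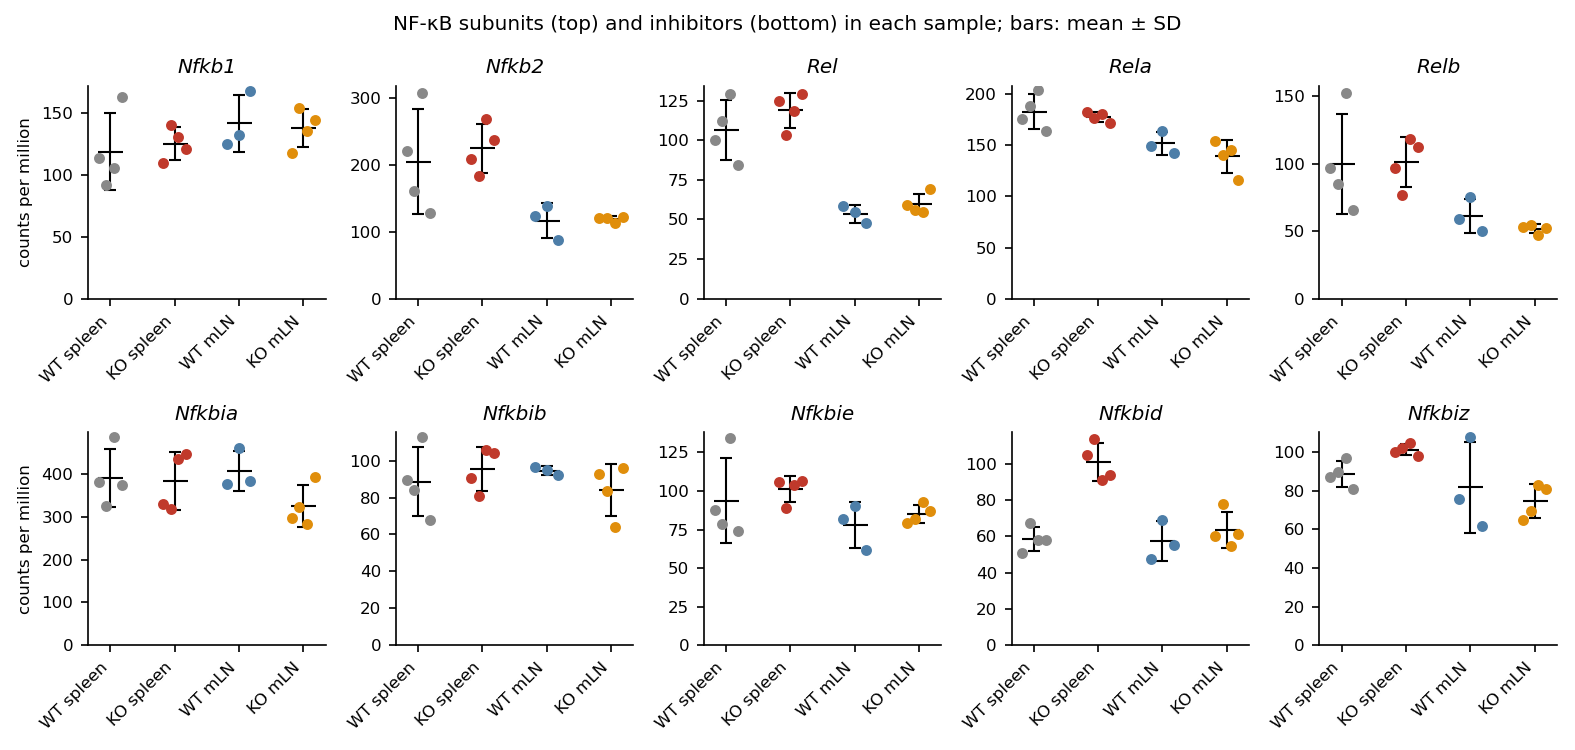
CPM of each member in each of the 15 samples (dots), with the mean ± SD of each group, subunits in the upper and inhibitors in the lower row. The 4 KO spleen samples of Nfkbid lie above all other samples of that gene, and the mLN samples of Rel lie below all spleen samples.

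Comparing the organs within a genotype, Rel was called lower in mLN in both genotypes, Nfkb2, Rela and Relb were called lower in KO cells but not in WT cells, and no cytoplasmic inhibitor was called in either. Rel, which encodes c-Rel, the subunit most typical of lymphocytes, was at 99.8, 112, 129 and 84.6 CPM in WT spleen and at 58.3, 54.7 and 47.5 CPM in WT mLN. In KO cells it was at 125, 103, 118 and 129 CPM in spleen and at 58.9, 56.3, 54.7 and 69.2 CPM in mLN. The organs did not overlap in either genotype. The log2 difference was -0.99 (SE 0.14) in WT and -0.99 (SE 0.10) in KO, so that mLN cells had a ratio of 0.50 to spleen cells in both, and Rel was called in both.

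Relb and Nfkb2, whose products RelB and p52 are the usual partners of the alternative NF-κB pathway, were called lower in mLN in KO cells but not in WT cells. Relb was at 97.0, 84.8, 152 and 65.6 CPM in WT spleen and at 59.0, 75.2 and 50.3 CPM in WT mLN, and at 96.9, 76.8, 118 and 112 CPM in KO spleen and 52.8, 54.7, 47.0 and 52.7 CPM in KO mLN. WT spleen replicate 4 fell into the mLN range, and the organs overlapped in WT but not in KO. The difference was -0.70 (SE 0.26) in WT, which was not called, and -0.96 (SE 0.13) in KO, which was.

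Nfkb2 was at 222, 162, 308 and 128 CPM in WT spleen and at 124, 139 and 88.2 CPM in WT mLN. In KO cells its values were 209, 183, 269.7 and 238 CPM in spleen and 122, 121, 113 and 123 CPM in mLN. The log2 difference was -0.81 (SE 0.27) in WT, not called, and -0.91 (SE 0.11) in KO, called. Of the exon bases of Nfkb2, 18.1% are shared with genes on the opposite strand, so its counts are less certain than those of Relb.

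Rela differed less between the organs. Its values were 176, 188, 203 and 164 CPM in WT spleen, 149, 164 and 143 CPM in WT mLN, 183, 177, 180.2 and 171 CPM in KO spleen and 154, 141, 145 and 116 CPM in KO mLN. The difference was -0.27 (SE 0.09) in WT, not called, and -0.35 (SE 0.09) in KO, called without overlap between the organs. Nfkb1 was the only subunit with a positive difference, at 0.25 (SE 0.19) in WT and 0.14 (SE 0.10) in KO, neither of them called.

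Among the inhibitors, the nuclear pair differed between the organs in KO cells. Nfkbid in KO cells was at 105.1, 114, 91.1 and 93.8 CPM in spleen and at 60.1, 77.9, 54.8 and 61.3 CPM in mLN, a difference of -0.66 (SE 0.12) that was called, against -0.04 (SE 0.14) in WT. Nfkbiz in KO cells was at 99.9, 102, 104.5 and 97.9 CPM in spleen and at 64.7, 69.7, 82.9 and 81.0 CPM in mLN, a difference of -0.44 (SE 0.09) that was called, against -0.12 (SE 0.16) in WT, where the mLN samples spread from 61.9 to 108 CPM. Nfkbia, Nfkbib and Nfkbie were not called in either genotype. Their differences lay between -0.27 (Nfkbie) and 0.09 (Nfkbib) in WT and between -0.25 (Nfkbie) and -0.18 (Nfkbib) in KO.

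In total 1 member (Rel) was called lower in mLN in WT cells, where 10.8% of 14515 genes were called lower, and 6 members (Nfkb2, Rel, Rela, Relb, Nfkbid and Nfkbiz) were called lower in KO cells, where 13.9% of 14240 genes were. No member was called higher in mLN, beside 9.7% of genes in WT and 11.4% in KO. The samples of the organs did not overlap for Rel in WT (16.1% of all genes had all mLN samples below all spleen samples) and for the 6 called members in KO (15.5%). These counts describe genes chosen with the organ values in view, so nothing about the family is read from them. The median difference of the 10 members was -0.19 in WT and -0.39 in KO, beside 0.00 and 0.01 over all genes. In WT cells, spleen and mLN samples with the same number deviated from their group means together, and with the replicate as a block (3 pairs) the members called lower were Nfkb2, Rel, Rela and Relb, 4 in all, with 15.2% of 14336 genes called lower. Without the block these 3 pairs gave 1 call, Rel. Leaving out WT spleen replicate 4 from the main comparison gave 5 calls, the same 4 subunits lower and Nfkb1 higher in mLN. The share of all genes called in that fit is not given here, so these 5 calls are not read as a result about the members. Reads on mitochondrial genes made up 1.43% of the reads on genes in WT spleen replicate 4 and 1.02% to 1.14% in the other WT spleen samples. Over both genotypes this share was 0.97% to 1.43% in spleen and 0.76% to 0.95% in mLN, with no overlap between the organs, and its part in the organ differences was not tested.

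**Figure D3:**
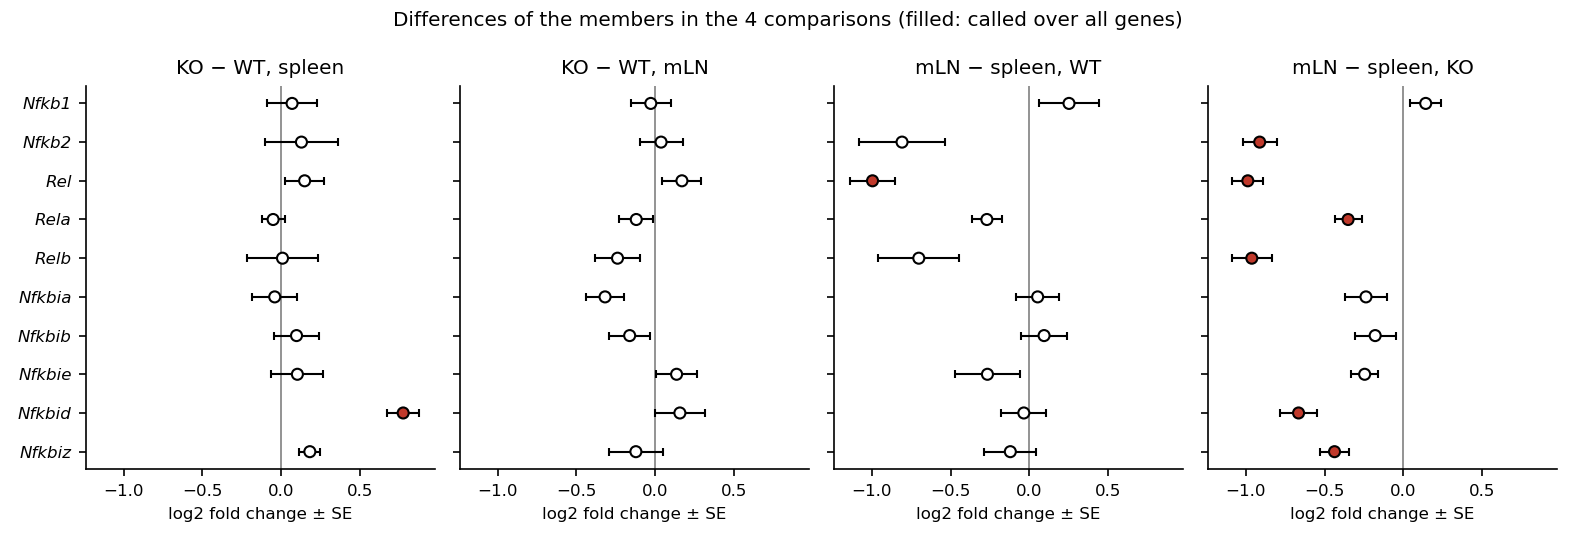
Log2 fold change ± SE of each member in the 4 comparisons, with filled points for genes called at an adjusted p under 0.05 over all genes tested. Nfkbid is the filled point of the spleen genotype comparison, Rel is filled in both organ comparisons, and the other 5 filled points (Nfkb2, Rela, Relb, Nfkbid and Nfkbiz) stand in the KO organ comparison.

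The count of 1 against 6 does not show that the organs differed by genotype. When the interaction of genotype and organ was tested in 1 fit of the 15 samples, no member was called, nor was any of 15438 genes (0%). Of these genes 652 had an unadjusted p under 0.05, which is fewer than 1 in 20, and DESeq2 called 2 genes. The interaction term of Nfkbid, the difference between KO and WT in mLN minus that in spleen, was -0.62 (SE 0.19), the largest of the members, and that of Nfkbiz was -0.30 (SE 0.19). For Rel it was 0.02 (SE 0.18), for Nfkb2 -0.09 (SE 0.30), for Rela -0.07 (SE 0.13) and for Relb -0.25 (SE 0.30). Both genotype comparisons and both organ comparisons use the same 15 samples, so KO spleen enters the spleen genotype difference and the KO organ difference of Nfkbid alike.

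Ratios of 2 members within a sample were also taken from the raw counts, where scaling between libraries cancels. Reads on Rel per read on Rela ranged from 0.52 to 0.63 in WT spleen and from 0.58 to 0.75 in KO spleen, but from 0.33 to 0.39 in WT mLN and from 0.38 to 0.60 in KO mLN. WT groups did not overlap between the organs, whereas the highest KO mLN sample reached into the KO spleen range. Reads on Nfkb2 per read on Nfkb1 had a median of 1.86 in WT spleen, 1.94 in KO spleen, 0.997 in WT mLN and 0.843 in KO mLN. They ranged in WT spleen from 0.79 to 2.91, so that the WT organs overlapped, and the KO organs did not (1.31 to 2.07 against 0.78 to 1.03). Reads on Nfkbid per read on Nfkbia had a median of 0.14 in WT spleen, 0.26 in KO spleen, 0.14 in WT mLN and 0.20 in KO mLN. KO spleen (0.21 to 0.36) and WT spleen (0.12 to 0.21) just failed to overlap. These ratios combine the same counts as the differences above and are descriptions.

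The members also varied together among samples of the same group. For each member the deviation of log2 CPM from its group mean was taken in the 15 samples, and Pearson's r between members is given as a description over samples that share a library preparation and normalization. Nfkb2 and Relb moved most closely together, with r of 0.96, which stayed between 0.94 and 0.97 when any 1 sample was left out. Nfkbie followed both of them, with r of 0.88 for Nfkb2 and 0.87 for Relb, and Relb and Nfkbib gave 0.81. The order within WT spleen shows the same, as replicate 3 was highest and replicate 4 lowest for Nfkb2, Relb, Rel, Rela, Nfkbib, Nfkbie and Nfkbiz. Nfkb1 was the opposite, with its highest WT spleen value, 163 CPM, in replicate 4, and its r was -0.68 with Rel, -0.60 with Rela and -0.52 with Nfkb2. Without WT spleen replicate 4 these were -0.53, -0.51 and -0.26. Nfkbid followed none of the others, with r between -0.16 (Nfkb2) and 0.24 (Nfkbiz), the latter being -0.07 without WT mLN replicate 2.

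**Figure D4:**
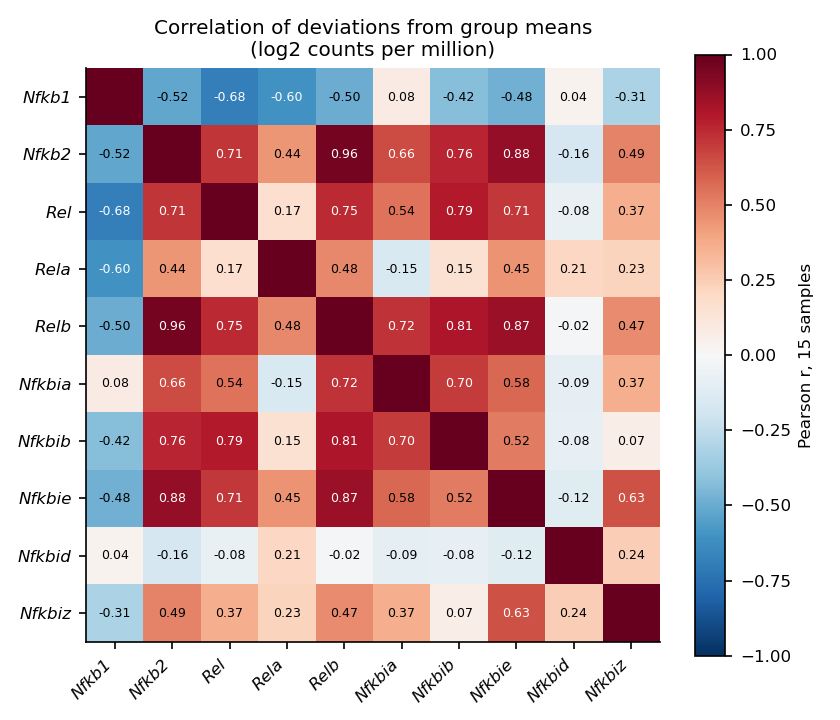
Pearson's r between members over 15 samples, computed on deviations of log2 CPM from the group means (red positive, blue negative). Nfkb2, Relb, Rel, Nfkbia, Nfkbib and Nfkbie form a positive block with 0.96 for Nfkb2 and Relb as its highest value, Nfkb1 is negative with most of them and Nfkbid is near 0 with all.

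Over all 15 samples, without removing group means, the 3 genes whose log2 CPM followed Rel most closely among 15438 genes were Slc4a2 (r = 0.97), Plekho2 (0.97) and Pip4k2c (0.97). For Nfkbid they were Setdb1 (0.84), the processed pseudogene Gm43058 (0.84) and the noncoding RNA D830036C21Rik (0.83). These values rank genes by likeness over samples that fall into 4 groups and no more is read from them.

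The other genes of the pathway were taken from 6 lists with 78 genes, from receptors to targets. In spleen, 0 of 76 tested genes were called higher in KO and 4 were called lower, beside 0.751% of all genes called lower. Il18r1, which encodes a chain of the interleukin-18 receptor, fell from 301 ± 23.8 CPM (SD, n = 4) in WT to 175 ± 11.2 (n = 4) in KO, a log2 difference of -0.79 (SE 0.08, edgeR adjusted p = 0.00245), and held without any 1 sample. Il1rl1, the receptor for interleukin-33, fell from 67.1 ± 23.4 to 22.8 ± 8.31 CPM (-1.57, SE 0.32, edgeR adjusted p = 0.0485), a call that only the fit without WT spleen replicate 4 kept among 8 fits without 1 sample. Among commonly described NF-κB targets, Il2ra, the α chain of the interleukin-2 receptor, fell from 111 ± 20.4 to 50.1 ± 9.03 CPM (-1.16, SE 0.16, edgeR adjusted p = 0.0123), and was not called without KO spleen replicate 2. Myc fell from 98.1 ± 24.7 to 50.2 ± 11.1 CPM (-0.98, SE 0.20, edgeR adjusted p = 0.0453), and kept its call in the 2 fits without WT spleen replicate 1 or 3. For Il2ra, Myc and Il1rl1 the call was also lost in the fit of all 15 samples together. Of the 21 tested genes of the target list, 4 had a negative difference and the median was 0.14, beside -0.00 over all genes.

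None of the genes of the IKK complex and its upstream kinases, of the T cell receptor route or of the adaptors and ubiquitin ligases was called between the genotypes in either organ. Bcl3, an atypical IκB protein that binds p50 and p52, was at 76.1 ± 22.2 CPM in WT and 109 ± 27.3 in KO spleen (0.52, SE 0.22, edgeR adjusted p = 0.229), with overlapping samples. In mLN 0 of 77 genes were called higher and 2 lower in KO, beside 50 higher and 42 lower of 14359 genes. Tnfaip3, which encodes A20, a deubiquitinase that ends NF-κB signalling, fell from 201 ± 8.31 CPM (n = 3) in WT to 119 ± 18.6 (n = 4) in KO (-0.75, SE 0.12, edgeR adjusted p = 0.0326). Birc3, which encodes the ubiquitin ligase cIAP2, fell from 133 ± 12.1 to 93.2 ± 2.50 CPM (-0.51, SE 0.09, edgeR adjusted p = 0.0422). The samples of the groups did not overlap for either gene, but the calls held in 3 of 7 fits without 1 sample for Tnfaip3 (those without WT replicate 1 or KO replicate 1 or 2) and in 1 of 7 for Birc3 (the fit without WT replicate 1). In spleen Tnfaip3 was at 199.6 ± 49.1 CPM in WT and 163 ± 15.3 in KO (-0.30, SE 0.15, edgeR adjusted p = 0.278). Zc3h12a, which encodes Regnase-1, an endonuclease that degrades messenger RNAs such as that of Rel, was at 35.3 ± 4.61 CPM in WT and 25.2 ± 1.58 in KO mLN (-0.48, SE 0.14, edgeR adjusted p = 0.153) and at 37.4 ± 4.28 and 37.6 ± 1.48 CPM in spleen (-0.00, SE 0.09).

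Between the organs, 11 of 77 pathway genes were called higher and 6 lower in mLN in WT cells, and 12 higher and 12 lower in KO cells, beside the shares of all genes given above. In the 3 numbered WT pairs 31 pathway genes were called with the replicate block and 15 without it. Most IKK genes were not called, the exception being Map3k14, the NF-κB inducing kinase of the alternative pathway, which fell in KO mLN (-0.50, SE 0.14, edgeR adjusted p = 0.0241). In the T cell receptor route Carmil2, a scaffold of CD28 signalling, fell in mLN by 1.10 in WT (SE 0.15, edgeR adjusted p = 0.00149) and by 1.15 in KO (SE 0.09, edgeR adjusted p = 1.01e-05). Traf3, an adaptor that keeps Map3k14 protein low, fell by 0.65 in WT (SE 0.13) and by 0.81 in KO (SE 0.11), with edgeR adjusted p-values of 0.00909 and 0.000302.

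Of the enzymes that build linear ubiquitin chains, Rnf31 fell in WT mLN from 63.0 ± 9.75 to 40.2 ± 6.81 CPM (edgeR adjusted p = 0.0157) and in KO mLN from 68.5 ± 3.25 to 43.8 ± 12.7 CPM (edgeR adjusted p = 0.0184). Rbck1 fell in KO mLN from 305 ± 11.7 to 238 ± 17.1 CPM (edgeR adjusted p = 0.00304), while their partner Sharpin rose by 0.38 in WT (SE 0.10, edgeR adjusted p = 0.0303) and by 0.34 in KO (SE 0.07, edgeR adjusted p = 0.00374). Irak1 rose in WT by 0.45 (SE 0.11, edgeR adjusted p = 0.0227) and Tradd in KO by 0.26 (SE 0.08, edgeR adjusted p = 0.039). Among the negative regulators, Otulin, which removes linear ubiquitin, rose by 0.77 in WT and 0.60 in KO (edgeR adjusted p = 0.00674 and 0.0223) and Peli1, a ubiquitin ligase that restrains T cell activation, rose by 0.66 and 0.44 (edgeR adjusted p = 0.00763 and 0.00267). Otud7b fell in WT by 0.33 (SE 0.10, edgeR adjusted p = 0.0478). Tnfaip3 and Zc3h12a fell in KO by 0.46 (SE 0.11) and 0.57 (SE 0.10), with edgeR adjusted p-values of 0.0114 and 0.00142, and had differences of 0.01 and -0.09 in WT. Bcl3 differed by 0.26 (SE 0.21) in WT and -0.18 (SE 0.16) in KO, neither of them called, and with the replicate block the WT difference was 0.44 (edgeR adjusted p = 0.012).

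Among the receptors, Icos rose in mLN from 369 ± 69.5 to 856 ± 89.7 CPM in WT (1.21, SE 0.15, edgeR adjusted p = 0.000797) and from 299 ± 30.7 to 722 ± 96.1 CPM in KO (1.28, SE 0.10, edgeR adjusted p = 1.01e-05). Tnfrsf18, which encodes GITR, rose by 0.73 in WT (SE 0.13, edgeR adjusted p = 0.00566) and by 0.59 in KO (SE 0.13, edgeR adjusted p = 0.00544). Tnfrsf4, which encodes OX40, rose by 0.71 in WT (SE 0.18, edgeR adjusted p = 0.0242) and by 0.66 in KO (SE 0.17, edgeR adjusted p = 0.0146), and the tumor necrosis factor receptor Tnfrsf1a fell in KO by 0.53 (SE 0.14, edgeR adjusted p = 0.019). Of the target list, Bcl2l1, an inhibitor of apoptosis, fell by 0.76 in WT (SE 0.10, edgeR adjusted p = 0.00139) and by 0.60 in KO (SE 0.11, edgeR adjusted p = 0.00193). Icam1, an adhesion molecule, rose by 0.79 in WT (SE 0.25, edgeR adjusted p = 0.0495) and by 0.89 in KO (SE 0.15, edgeR adjusted p = 0.00128). Irf1 was lower in KO mLN, at 339.96 ± 27.9 against 429.6 ± 54.7 CPM (-0.34, SE 0.10, edgeR adjusted p = 0.0241). The chemokine gene Ccl22 was at 9.80 ± 4.40 CPM in WT mLN and 4.85 ± 3.37 in KO mLN but had at most 7 reads in any spleen sample, and was called higher in mLN in both (edgeR adjusted p = 0.000719 and 0.00106). For Rbck1, Irak1, Tradd, Otud7b, Map3k14, Tnfrsf1a and Irf1, named above for 1 genotype, the difference in the other genotype had the same sign and was not called.

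Il2ra and Myc went the opposite way to Rel between the organs. Il2ra rose in WT mLN from 111 ± 20.4 to 208 ± 99.6 CPM (0.90, SE 0.27, edgeR adjusted p = 0.0438) and Myc from 98.1 ± 24.7 to 186 ± 48.3 CPM (0.92, SE 0.23, edgeR adjusted p = 0.0198). Myc also rose in KO mLN, from 50.2 ± 11.1 to 98.9 ± 22.6 CPM (0.98, SE 0.18, edgeR adjusted p = 0.00237). In KO cells Il2ra was at 50.1 ± 9.03 CPM in spleen and 84.6 ± 35.4 in mLN (0.76, SE 0.30, edgeR adjusted p = 0.0846). Without KO mLN replicate 4 that difference was 1.03 (edgeR adjusted p = 0.0005). The other 7 of the 8 fits without 1 sample did not call it, and the samples of the organs overlapped. In KO against WT in mLN, Il2ra was at 208 ± 99.6 CPM in WT and 84.6 ± 35.4 in KO (-1.29, SE 0.37, edgeR adjusted p = 0.139). In WT the calls of Il2ra, Otud7b, Sharpin, Tnfrsf4, Irak1, Myc and Icam1, and in KO those of Tradd, Otulin, Irf1, Map3k14 and Tnfrsf1a, were lost without at least 3 of the samples left out in turn. The call of Rnf31 in KO was lost without KO spleen replicate 2 or KO mLN replicate 1. The remaining organ calls named here (Rnf31, Traf3, Bcl2l1, Otulin, Peli1, Icos, Tnfrsf18, Carmil2 and Ccl22 in WT, and Rbck1, Sharpin, Traf3, Bcl2l1, Icam1, Myc, Peli1, Tnfaip3, Zc3h12a, Icos, Tnfrsf4, Tnfrsf18, Carmil2 and Ccl22 in KO) held without any 1 sample. Some organ calls were also lost under other processing. In WT these were Icam1 with RLE normalization, and Il2ra and Otud7b with DESeq2 and in the fit of all 15 samples. Without the filter Otud7b in WT and Tradd in KO were not called. Irf1 and Tnfrsf1a in KO were not called in the fit of all 15 samples. Ccl22 lost its call in both genotypes when at least 10 counts were required in every sample.

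**Figure D5:**
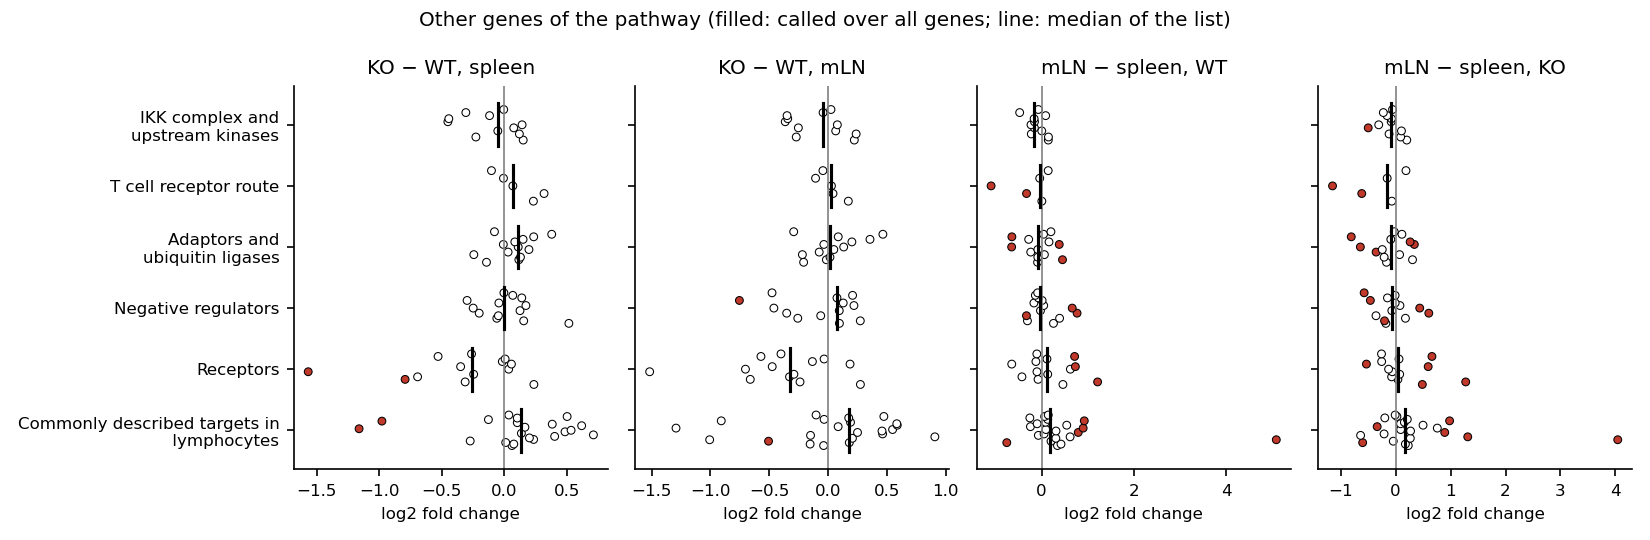
Log2 fold changes of the other pathway genes in the 4 comparisons, 1 dot per gene, with filled dots for called genes and a line at the median of each list. The genotype comparisons hold 4 and 2 filled dots, all below 0, and the organ comparisons 17 and 24 on both sides of 0.

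Some genes that respond to tissue dissociation moved with some of these results, and others of the same list went the other way. Of 13 such genes, 11 were tested in spleen and 3 were called higher in KO, Fos at 113 to 179 CPM against 21.6 to 57.6 in WT, Fosb at 23.2 to 35.6 against 2.89 to 10.6, and Hspa1a at 2.92 to 57.0 against at most 0.52 CPM. Another 3 of the 11 had a negative difference in spleen, Junb (-0.47), Ier2 (-0.32) and Dusp1 (-0.39), none of them called. In mLN 12 of the list were tested and 2 were called lower in KO, beside the falls of Tnfaip3 and Birc3 there. These were Junb, lower by 0.87 (SE 0.14, edgeR adjusted p = 0.0326), and Ier2, lower by 0.50 (SE 0.10, edgeR adjusted p = 0.0492). Of the 12, 8 had a negative difference in mLN. Hspa1b (3.97), Hspa1a (2.50), Nr4a1 (0.73) and Egr2 (0.55) had a positive one, none of them called. The summed level of the list ranged from 1343 to 2078 CPM in WT spleen and from 1809 to 1864 in KO spleen. It ranged from 1136 to 1809 CPM in WT mLN and from 840.2 to 1043 in KO mLN, and 7 of 12 genes tested were called lower in KO mLN than in KO spleen. The part of such a response in the values of Nfkbid, of Tnfaip3 and Birc3 and of the organ comparisons was not tested.

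Markers of other cells differed between groups too. The summed CPM of 5 neutrophil markers ranged from 133 to 449.5 in WT spleen and from 125 to 369 in KO spleen, against 45.4 to 61.7 in WT mLN and 16.5 to 37.0 in KO mLN. Mpo and Elane, of immature neutrophils, had at most 2 reads in any KO mLN sample and at most 10 in any WT mLN sample, beside up to 772 in spleen. The 5 monocyte and macrophage markers summed to 111 to 201 CPM in WT spleen, 116 to 324 in KO spleen, 48.6 to 206 in WT mLN and 75.3 to 87.8 in KO mLN, and the 2 CD8 markers to 2.604 to 4.96, 1.59 to 4.42, 7.26 to 11.6 and 19.4 to 28.02 CPM. The 5 erythroid markers summed to 86.2 to 1869 CPM in WT spleen, 39.7 to 105.2 in KO spleen, 21.5 to 797 in WT mLN and 17.4 to 70.2 in KO mLN. The 5 dendritic cell markers summed to 20.4 to 29.2 CPM in WT mLN and 31.1 to 45.6 in KO mLN, without overlap, and to 25.6 to 36.2 in WT spleen and 27.01 to 34.4 in KO spleen. The 5 B cell markers summed to 1.46 to 3.98, 1.99 to 4.23, 2.48 to 7.51 and 3.10 to 8.28 CPM in WT spleen, KO spleen, WT mLN and KO mLN. Among them Ms4a1 had at most 4 reads in any sample and Cd79b at most 63. Pax5, which had at most 2 reads in WT mLN, 18 in KO spleen and 48 in KO mLN, was called higher in KO mLN than in WT mLN and in KO spleen (edgeR adjusted p = 0.0372 and 0.0325). The 5 stromal and endothelial markers summed to 67.1 to 134 CPM. Most of this was Pecam1, with means of 97.6, 78.8, 117 and 102 CPM in WT spleen, KO spleen, WT mLN and KO mLN. Col1a1, Col3a1 and Pdgfra were at most at 2.66 CPM in any sample. Acta2, at 0.68 to 0.73 CPM in WT spleen, 1.43 to 3.23 in KO spleen, 0.71 to 0.86 in WT mLN and 3.65 to 7.45 in KO mLN, was called higher in KO in both organs (edgeR adjusted p = 0.0448 and 0.0326). The 3 NK cell markers summed to at most 18.6 CPM in any sample. The share of these cells in the genotype and organ differences of the members was not tested.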

How the data were processed

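The authors aligned single-end reads of 75 bases to GRCm38 with STAR 2.6.1a in 2-pass mode and GENCODE M23, and deposited whole-number counts per gene and sample, with no normalization. The submitters' processing notes also name bcl2fastq 2.19.1.403, RSEM and DESeq2 1.22.2. The strand setting of the counts is not given in the sources used here, and 58.4% to 63.4% of uniquely aligned reads lay on no gene. Nfkb2 and Nfkbib (16.4% of its exon bases) share exon bases with genes on the opposite strand, and the other 8 members share none.

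GENCODE M21 of the same build gave symbols, positions and lengths for 55240 of 55421 genes. Counts were tested with edgeR 4.0.16 (filterByExpr, TMM, quasi-likelihood test) in R 4.3.3, in each organ or genotype separately, with Benjamini-Hochberg adjustment over all genes tested and a limit of 0.05. Log2 CPM used a prior count of 2. DESeq2 1.42.0, RLE normalization, no filter, a minimum of 10 counts per gene and sample, 1 fit of the 15 samples, a fold change limit of 1, the replicate block and each sample left out in turn were alternatives. Fits of the 3 numbered pairs without the block (WT organs, and genotypes in mLN) were added after seeing the data. Scripts were tested on simulated counts. Python 3.11.15 with pandas 2.3.3 and matplotlib 3.10.9 was used for the rest.

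The members, the gene lists and the alternatives were chosen with earlier results of these data known. Named pathway genes were all called genes of a list in a comparison, or above 4 the 2 with the smallest p in each direction, and Tnfaip3, Bcl3, Zc3h12a and Il2ra in any case, except that 1 gene of the rule is not reported here. Organ differences of Myc, Rnf31 and Tnfrsf4 in KO, of Icam1 in WT and the markers and dissociation genes named were added after their values were seen. For Nfkbid and Rel, the members with the largest mean absolute differences between genotypes and between organs, the 3 genes with the highest r were named. Ccl21a, with 2 gene identifiers, was left out of the stromal markers. Samples were grouped by genotype and organ in their labels, which do not tell whether a number stands for a mouse. Correlations of the deviations of same-numbered WT spleen and mLN samples were 0.26, 0.24 and 0.29, so the WT organ comparison is also given with the replicate as a block. The study's supplement gives 1 experiment with 4 mice for each group, so the samples of a group were taken as separate mice. Reads without molecular identifiers are not independent molecules.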

Additional observations from a re-analysis of the deposited data

Results flagged for a closer look

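Nfkbie in KO spleen replicate 2 was at 89.2 CPM, apart from the other KO spleen samples, which lay between 103.8 and 106.2 CPM. The gap to the nearest of them was 0.85 of the range of the group. This was the only such sample in 30 groups of 4 samples tested (10 members in WT spleen, KO spleen and KO mLN), and chance alone gives about 1 in 20 of them. Without this sample the KO against WT difference of Nfkbie in spleen remained uncalled.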

How the results depend on the processing

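Of the 40 log2 differences of the members (10 in each of 4 comparisons), 13 changed sign in at least 1 fit without 1 sample, none of them called, among them Relb in 5 and Nfkbia in 3 of 8 fits in KO against WT in spleen. None changed sign under the other alternatives. With a fold change limit of 1 no member was called in any comparison, where 1, 1 and 6 had been in KO against WT in spleen, mLN against spleen in WT and mLN against spleen in KO, and pathway genes called were 2 in spleen and 0 in mLN between genotypes and 3 in WT and 4 in KO between organs. Without the filter on low counts, 3 members were called in the WT organ comparison (Nfkb2, Rel and Relb), beside 3717 of 34385 genes in either direction. In the interaction 1 member was then called (Nfkbid), beside 112 of 39155 genes, and 19 pathway genes were called between genotypes in spleen and 13 in mLN. DESeq2 called 2 members in the WT organ comparison (Rel and Relb), beside 3265 of 16375 genes in either direction. Between genotypes it called 10 pathway genes in spleen and 6 in mLN. The fit of all 15 samples called 3 members in the WT organ comparison, beside 3494 of 15438 genes in either direction. Between genotypes that fit called 1 pathway gene in spleen and 8 in mLN, among them Zc3h12a and Il2ra in mLN. In the 3 numbered WT pairs the organ comparison called 4 members and 31 pathway genes with the replicate block, and 1 and 15 without it. Between genotypes 1 pathway gene was called in spleen with the block, and in mLN 0 both with and without the block in the numbered pairs, which leave out KO replicate 3. The causes were not tested. Genotype samples of one number did not deviate together (r from -0.21 to 0.15), nor did every KO pair between organs (0.03 to 0.26, with 2 of 4 KO spleen samples closest to their own number). The block changed no call of a member in KO against WT or in the KO organ comparison, where Il2ra was called with a difference of 0.65.

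Leaving out 1 sample at a time gave 0 to 1 members and 1 to 4 pathway genes in KO against WT in spleen, 0 members and 0 to 3 pathway genes in mLN, 1 to 5 and 9 to 16 in the WT organ comparison, and 6 to 7 and 18 to 27 in the KO organ comparison. Where this left 2 samples in WT mLN, their spread was pooled with the other group. Shares of all genes called in the fits without 1 sample are not given here. Nothing about the members is therefore read from these counts. Over all genes, 185 were called between genotypes in spleen, but 1422 without the filter, 799 by DESeq2, 85 in the fit of all samples and 17 with the block. In mLN 92 were called, but 913 without the filter, 561 by DESeq2 and 500 in the fit of all samples, and in the numbered pairs 4 without and 1 with the block. In the WT organ comparison 2980 genes were called, and in the numbered pairs 2434 without and 4397 with the block. Without the filter 112 genes were called in the interaction. Depth limits the members little, as the lowest count was 471 reads.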
